A study of Mus musculus with 4 samples.

Results

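Forkhead genes encode transcription factors that bind DNA through a winged-helix domain and are named Fox with a letter for the subfamily and a number for the gene. They were followed here in cancer-associated fibroblasts of mouse pancreatic tumours. The genes were chosen by name alone, as the rows of the deposited count table whose symbol is Fox, a subfamily letter from A to S and a number, which gave 44 of 22609 genes. A further 3 names that begin with Fox were left out by this pattern (Foxl2os, Foxred1 and Foxred2). All 44 symbols matched a RefSeq mouse gene, 43 as the current symbol and foxf1a as an older name of Foxf1.

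RNA sequencing was done on FAP+ cells sorted from pancreatic ductal adenocarcinomas that arose spontaneously in mice of C57BL/6 genetic background. FAP, fibroblast activation protein, is a surface protease of stromal cells in tumours. The cells formed a FAP+ CD34+ and a FAP+ CD34- group with 2 libraries each, called biological replicates 1 and 2 in the titles. The sources used here do not give the model's alleles, the age of the mice or the number of animals behind a library, so p-values measure the spread between these libraries. The question is how forkhead genes differ between FAP+ cells with and without CD34, a surface sialomucin of endothelial, progenitor and some stromal cells.

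The libraries held 10322354 and 13649942 counted reads for CD34+ cells and 13218444 and 14633561 for CD34- cells. All 10 fibroblast markers checked were detected, led by Col1a2, with sums of 43904 and 45179 counts scaled to the library total (CPM) in CD34+ libraries and 45911 and 42592 CPM in CD34- libraries. Cd34 was 143 and 293 CPM in CD34+ libraries and 18.3 and 23.9 CPM in CD34- libraries. Fap was 79.0 and 39.8 CPM in CD34+ libraries, against 142 and 136 CPM in CD34- libraries. More genes had a count above 0 for CD34+ cells (19627 and 19613) than for CD34- cells (17452 and 16818).

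The subfamilies differ in what is known of them. FoxO factors leave the nucleus when AKT, a kinase downstream of insulin and growth factor receptors, phosphorylates them and 14-3-3 proteins bind them. FoxF and FoxL1 factors act in mesenchyme downstream of Hedgehog signals, FoxC factors in mesenchyme, vessels and eye, FoxM1 at mitotic genes of dividing cells, and FoxA factors in endoderm, pancreas included.

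Of the 44 forkhead genes, 41 had at least 1 count, and Foxi1, Foxi2 and Foxe3 had a count of 0 in all 4 libraries. The filter on low counts kept 26 for the test. Its limit was about 0.744 CPM in at least 2 libraries, and 2 genes passed it in 1 group only, Foxd2 in the CD34- group and Foxj1 in the CD34+ group. These 2 were therefore bound to differ between the groups.

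Levels of different genes were compared by the deposited RPKM (reads scaled to gene length and depth). RPKM was scaled by the authors to other totals than the summed counts. The summed counts as a share of those totals were, relative to CD34- replicate 2, 65.0% and 84.3% in CD34+ replicates 1 and 2, and 94.8% in CD34- replicate 1, so RPKM of CD34+ libraries is low as a whole. Orders are therefore read within a library. Foxp1, a repressor needed in B cells, lung and heart, had the highest RPKM of the 26 in all 4 libraries, with 17.5 and 22.4 RPKM in CD34+ libraries and 27.6 and 26.9 RPKM in CD34- libraries. It held 23.9% and 22.7% of the summed forkhead RPKM in CD34+ libraries and 20.6% and 19.6% in CD34- libraries.

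Foxs1 and Foxn3 came next by mean RPKM. Foxs1, a factor of vascular mural cells and sensory neurons, was 7.91 and 10.6 RPKM in CD34+ libraries and 22.4 and 20.5 RPKM in CD34- libraries. Foxn3, known as a checkpoint suppressor, was 9.79 and 11.8 RPKM in CD34+ libraries and 15.7 and 16.5 RPKM in CD34- libraries. These neighbours changed places: Foxn3 stood above Foxs1 in both CD34+ libraries and below it in both CD34- libraries. Foxp1, Foxs1 and Foxn3 together made up 48.1% and 45.4% of the forkhead RPKM in CD34+ libraries, against 48.9% and 46.5% in CD34- libraries. Below them the means ran down through Foxo1 (7.13 RPKM over all 4 libraries), Foxk2 (6.23), Foxj2 (5.19) and Foxc1 (5.15) to Foxj1 (0.203). Of neighbours in this order, Foxp1 over Foxs1, Foxn3 over Foxo1 and Foxa3 over Foxo6 kept their places in all 4 libraries, and the other pairs changed places in at least 1.

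**Figure D1:**
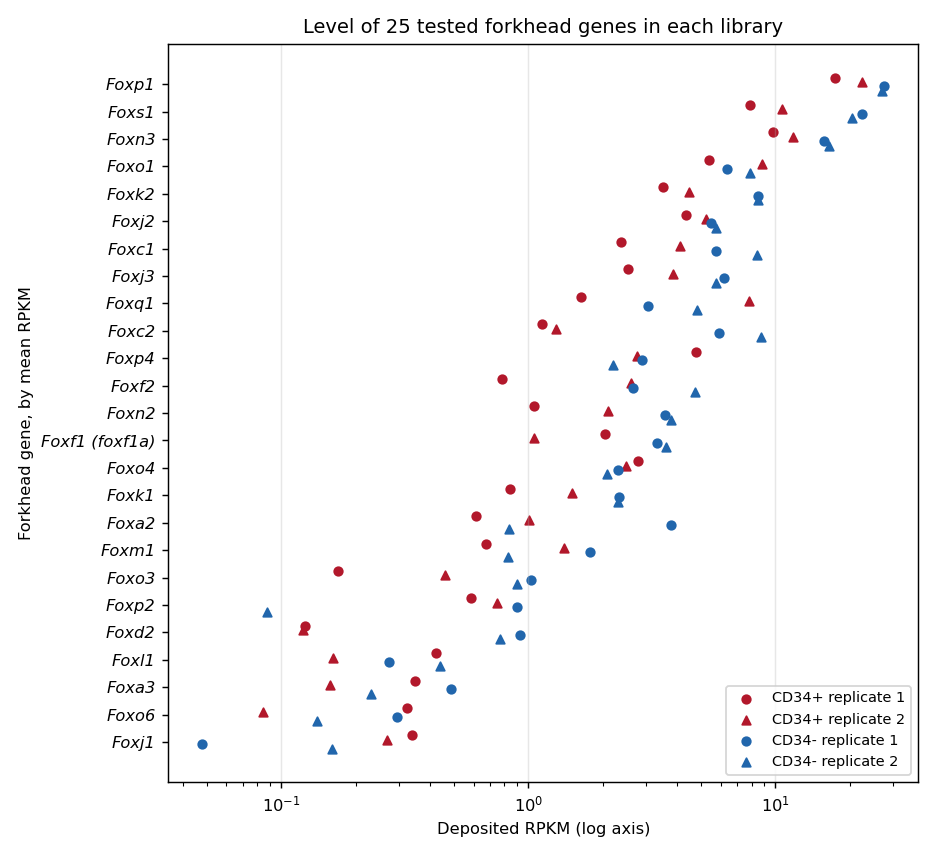
Deposited RPKM on a log axis for 25 of the 26 tested forkhead genes, ordered by mean, with a point for each of the 2 CD34+ (red) and 2 CD34- (blue) libraries. Foxp1 is highest in every library, and Foxc2 and Foxd2 show a wide gap between the groups, with both CD34+ points on the left. RPKM of CD34+ libraries is low as a whole, so groups are compared by CPM in the text. Foxd2 passed the filter through the CD34- group only.

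Between the groups, the edgeR quasi-likelihood test called 0 of the 26 forkhead genes at an adjusted p of 0.05, and 0 of all 13875 genes tested, so that percent called was 0 in each direction. Cd34, the gene of the sort marker, was not called either (log2 fold change 3.37, SE 0.43, adjusted p = 0.141, edgeR). A gene that did not pass is therefore not shown to be equal between the groups. At an unadjusted p under 0.05 (edgeR), 5 forkhead genes were lower in CD34+ cells (Foxc2, Foxd2, Foxs1, Foxk2 and Foxn2) and 1 was higher (Foxj1). Over all genes tested that share was 6.65% lower and 9.81% higher. By sign alone 11 of 26 were positive and 15 negative, where all genes tested gave 48.7% and 51.3%. Without Foxd2 and Foxj1, 4 of 24 were lower and 0 higher at an unadjusted p under 0.05 (edgeR), and by sign 10 were positive and 14 negative. Over all alternatives, left-out libraries included, the weakest log2 fold change was -1.84 for Foxc2, -0.73 for Foxs1, -0.61 for Foxk2 and -0.47 for Foxn2. For Foxd2 and Foxj1, which the filter bound to differ, it was -0.71 and 0.24. DESeq2 called 1 forkhead gene lower (Foxc2) and 0 higher, where 1.30% of all genes were called lower and 2.85% higher. EdgeR's exact test called 2 lower (Foxc2 and Foxd2) and 0 higher, against 1.46% and 3.29% of all genes. Of these, Foxd2 was bound to differ by the filter. Without a filter on low counts 1 was called lower (Foxc2) and 0 higher, against 0.653% and 0.924%. The replicate block called 0 forkhead genes (0.166% of all genes lower, 0.281% higher), as did limma on log2 FPKM + 1 (0 lower, 0.0133% higher) and limma voom. The median log2 fold change (log2FC), CD34+ over CD34-, was -0.11 over the 26 and -0.02 over all genes tested. CPM of the groups did not overlap for 12 forkhead genes that were lower and 5 that were higher in CD34+ libraries, where all genes tested gave 26.6% and 23.4%. These include Foxd2 and Foxj1, whose gap was fixed by the filter, and without them 11 of 24 were lower and 4 higher. In sorted populations, fewer cells of a type and less RNA per cell cannot be told apart.

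**Figure D2:**
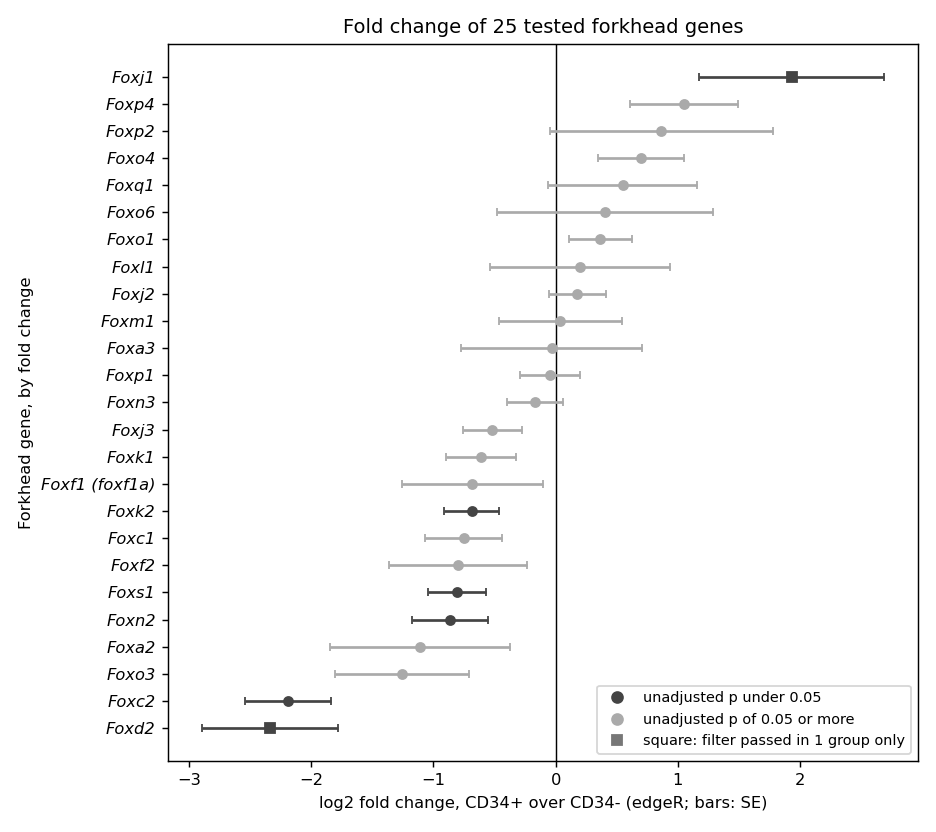
Log2 fold change (CD34+ over CD34-) with its standard error from edgeR for 25 of the 26 tested forkhead genes, ordered by fold change. Dark points had an unadjusted p under 0.05, none passed after adjustment, and squares mark Foxd2 and Foxj1, which passed the filter in 1 group only.

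Among the mesenchymal factors, Foxc2 stood farthest apart by its p. Foxc2, needed for lymphatic valves, vessels and the skeleton, was 5.52 and 4.84 CPM in CD34+ libraries (57 and 66 reads), against 19.7 and 27.7 CPM in CD34- libraries (261 and 405 reads). Both CD34- libraries lay above both CD34+ libraries. The means were 5.18 ± 0.486 CPM in CD34+ libraries and 23.7 ± 5.61 CPM in CD34- libraries (SD over 2 libraries each), a log2FC of -2.19 (SE 0.35), or 4.56-fold higher in CD34-. Its unadjusted p was 7.1e-04 and its adjusted p 0.163 (edgeR), so it did not pass. DESeq2 and edgeR's exact test did call it (adjusted p = 1.8e-04 and 1.1e-04), as did edgeR without a filter on low counts (adjusted p = 0.0075). Over all alternatives its log2FC lay between -2.50 and -1.84 and its adjusted p between 1.1e-04 and 0.458. On the authors' estimated fragments it was -2.22.

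Foxc2 is also a gene of lymphatic endothelium, and markers of vessels were measured in the same libraries. Of the 3 lymphatic markers, Lyve1 and Flt4 were tested and both had a negative fold change (0 of 2 at an unadjusted p under 0.05), with a summed level of 8.04 and 4.84 CPM in CD34+ libraries and 12.3 and 8.06 CPM in CD34- libraries. Prox1, the defining factor of lymphatic endothelium, was 0.581 and 0.293 CPM in CD34+ libraries and 0.530 and 0 CPM in CD34- libraries. Of the 8 general endothelial markers 6 were positive and 2 negative, with sums of 86.2 and 70.5 CPM in CD34+ libraries against 38.8 and 44.3 CPM in CD34- libraries. At an unadjusted p under 0.05 (edgeR) 5 were higher and 0 lower, beside 9.81% higher and 6.65% lower over all genes tested. Pecam1 and Vwf, 2 of these markers, were 15.8 and 11.7 CPM and 27.1 and 16.3 CPM in CD34+ libraries. In CD34- libraries Pecam1 was 1.51 and 3.42 CPM and Vwf 3.03 and 3.42 CPM. The 2 negative ones, Emcn and Esam, also did not overlap between groups, where 26.6% of all genes tested were lower without overlap. Emcn was 4.84 and 5.27 CPM and Esam 8.91 and 9.30 CPM in CD34+ libraries. In CD34- libraries Emcn was 10.7 and 6.83 CPM and Esam 13.5 and 17.5 CPM. The part of these cells in the Foxc2 values was not tested.

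Foxc1, the close relative of Foxc2 in the same tissues, was 16.9 and 22.6 CPM in CD34+ libraries and 27.9 and 38.8 CPM in CD34- libraries. Its groups did not overlap, and its log2FC was -0.75 (SE 0.31, adjusted p = 0.306, edgeR), and -0.41 without CD34- replicate 2. Foxd2, a factor of paraxial and kidney mesenchyme, was read 6 and 6 times in CD34+ libraries and 39 and 34 times in CD34- libraries. That is 0.581 and 0.440 CPM in CD34+ libraries against 2.95 and 2.32 CPM in CD34- libraries, a log2FC of -2.33 (SE 0.55, adjusted p = 0.187, edgeR). Both groups were low, and the CD34- libraries were 5.04-fold higher by the fit. EdgeR's exact test called Foxd2 (adjusted p = 0.025). Foxd2 passed the filter through the CD34- group only, so it was bound to differ in these fits. The related Foxd1, a marker of kidney stroma and of pericyte precursors, had 7 and 10 reads in CD34+ libraries and 9 and 1 in CD34- libraries and was not tested.

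Foxs1 was 18.5 and 19.2 CPM in CD34+ libraries and 35.9 and 31.2 CPM in CD34- libraries. Replicates lay close together in both groups, with means of 18.8 ± 0.488 CPM in CD34+ libraries and 33.5 ± 3.38 CPM in CD34- libraries (SD over 2 libraries each). The log2FC was -0.81 (SE 0.24), with an unadjusted p of 0.014 and an adjusted p of 0.227 (edgeR). On the estimated fragments it was -1.02. Of 6 pericyte markers in these libraries, 3 had a negative and 3 a positive fold change, with sums of 380 and 289 CPM in CD34+ libraries and 403 and 516 CPM in CD34- libraries. Rgs5 and Mcam were the 2 with an unadjusted p under 0.05 (6.65% of all genes were lower by that measure), at 2.13 and 7.33 CPM and at 27.9 and 16.5 CPM in CD34+ libraries. In CD34- libraries Rgs5 was 45.5 and 89.7 CPM and Mcam 103 and 103 CPM. Cspg4 overlapped between groups (243 and 51.9 CPM in CD34+ libraries, 139 and 196 CPM in CD34- libraries). The 3 positive markers, Notch3, Kcnj8 and Abcc9, also overlapped, with log2FC of 0.40, 0.57 and 0.24 in that order. The part of pericytes in the Foxs1 values was not tested.

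Foxf1 and Foxf2, Hedgehog-responsive factors of gut and lung mesenchyme, were both lower on average in CD34+ cells without passing. Foxf1 was 3.88 and 1.54 CPM in CD34+ libraries and 4.31 and 4.44 CPM in CD34- libraries (log2FC -0.68, SE 0.58, adjusted p = 0.572, edgeR). Foxf2 was 3.29 and 8.50 CPM in CD34+ libraries and 7.64 and 12.9 CPM in CD34- libraries, which overlap (-0.80, SE 0.56, adjusted p = 0.503, edgeR). Single libraries moved both values: Foxf1 was -1.51 without CD34+ replicate 1 and -0.16 without CD34+ replicate 2. Foxf2 was -0.30 without CD34+ replicate 1, -1.64 without CD34+ replicate 2, -1.21 without CD34- replicate 1 and -0.28 without CD34- replicate 2. Foxf1 had 2.68 times as many estimated fragments as reads over the 4 libraries, and on fragments its log2FC was -1.09 (SE 0.46, unadjusted p = 0.059, edgeR). Foxl1, a marker of mesenchymal cells below the gut epithelium, had 23 and 9 reads in CD34+ libraries and 13 and 22 in CD34- libraries, an overlap in which no direction can be read (0.20, SE 0.74). Foxq1, first known from hair differentiation, was 8.14 and 30.1 CPM in CD34+ libraries and 10.4 and 15.7 CPM in CD34- libraries. The CD34+ libraries held both its lowest and its highest value, and its sign turned without CD34+ replicate 2 (log2FC -0.69, against 0.55 with all libraries).

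Several of these genes lie side by side. In the GRCm38.p6 annotation of RefSeq, Foxf1, Mthfsd, Foxc2 and Foxl1 follow one another on chromosome 8 and Foxq1, Foxf2 and Foxc1 on chromosome 13, counting protein-coding genes only. On chromosome 8 the wide gap at Foxc2 was not seen at Mthfsd, a folate-pathway gene next to it. Mthfsd was 13.8 and 11.9 CPM in CD34+ libraries and 18.9 and 9.64 CPM in CD34- libraries (log2FC -0.11, SE 0.38, edgeR). The flanking Irf8, an interferon regulatory factor of blood cells, was 14.9 and 11.5 CPM in CD34+ libraries and 11.2 and 9.70 CPM in CD34- libraries (0.36, SE 0.32). On chromosome 13, CD34+ replicate 2 lay above CD34+ replicate 1 and CD34- replicate 2 above CD34- replicate 1 for all 3 forkhead genes and for the flanking Gmds. That held for 5 of the 26 forkhead genes and for 24.4% of all genes tested.

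**Figure D3:**
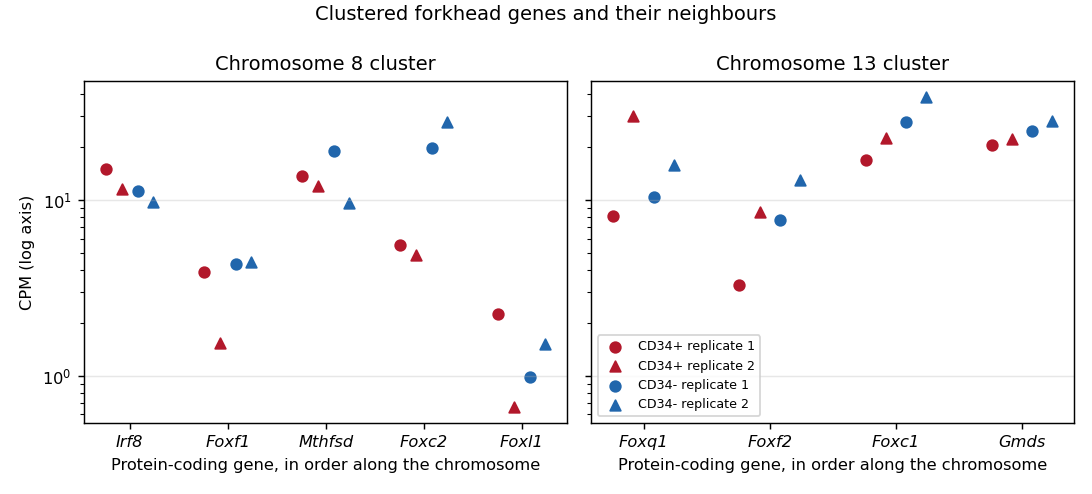
CPM on a log axis for genes of the chromosome 8 and chromosome 13 forkhead clusters and their protein-coding neighbours, in chromosome order, with a point for each library (red CD34+, blue CD34-). Neighbours with a mean under 0.5 CPM are left out. Foxc2 has both CD34- points above the CD34+ points, while its neighbours Mthfsd and Foxl1 overlap.

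FoxP factors are repressors that pair through a leucine zipper. Foxp1 was level between the groups by counts, at 224 and 221 CPM in CD34+ libraries and 242 and 224 CPM in CD34- libraries. Its log2FC was -0.05 (SE 0.25, adjusted p = 0.939, edgeR), and the sign turned with upper-quartile scaling (0.034) and on estimated fragments (0.16). Foxp4, which acts with Foxp1 in lung and gut, was 34.4 and 15.2 CPM in CD34+ libraries and 14.2 and 10.3 CPM in CD34- libraries. The groups did not overlap, but CD34+ replicate 1 stood apart from the other 3 libraries. Its log2FC was 1.05 (SE 0.44, adjusted p = 0.312, edgeR) with all libraries and 0.31 without CD34+ replicate 1. Foxp2, known from speech circuits in humans, was 7.07 and 6.96 CPM in CD34+ libraries and 7.41 and 0.683 CPM in CD34- libraries, so that CD34- replicate 2 alone was low. Its log2FC was 0.87 (SE 0.91) with all libraries, 3.26 without CD34- replicate 1 and 0.0085 without CD34- replicate 2.

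Foxp3, the defining factor of regulatory T cells, had 2 and 3 reads in CD34+ libraries and 0 in both CD34- libraries. A count of 0 could hold up to 3 reads, which is 0.227 and 0.205 CPM in CD34- replicates 1 and 2, so these libraries do not differ detectably from the CD34+ ones at 0.194 and 0.220 CPM. In the authors' table of estimated fragments the same gene had 63.8 and 36.8 fragments in CD34+ libraries and 79.4 and 64.8 in CD34- libraries, 49.0 times its reads over the 4 libraries. In RefSeq the gene overlaps Ccdc22, which had 245 and 289 fragments in CD34+ libraries against 76 and 102 reads, and 416 and 387 fragments in CD34- libraries against 135 and 124 reads. Of the other T-cell markers, Cd4, Cd8a, Cd3d and Cd3g were under 0.5 CPM in all 4 libraries. The kinase gene Lck was above the floor in each, at 1.65 and 1.90 CPM in CD34+ libraries and 1.66 and 2.19 CPM in CD34- libraries. Cd3e was 19.0 CPM in CD34+ replicate 1, 0.293 CPM in CD34+ replicate 2 and 0 in both CD34- libraries. The part of T cells in these values was not tested.

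Of the FoxO genes, Foxo1 was the most abundant. It was 53.1 and 67.5 CPM in CD34+ libraries and 43.4 and 51.0 CPM in CD34- libraries, groups that just failed to meet (log2FC 0.36, SE 0.26, adjusted p = 0.506, edgeR, and between 0.16 and 0.56 without single libraries). Foxo4 was 15.7 and 10.8 CPM in CD34+ libraries against 8.93 and 7.65 CPM in CD34- libraries (0.70, SE 0.35, adjusted p = 0.373, edgeR), and its log2FC was 0.38 without CD34+ replicate 1. Foxo3, usually counted with Foxo1 as a main FoxO factor of tissues, was low, with 9 and 25 reads in CD34+ libraries and 48 and 44 in CD34- libraries. It ran the other way from its relatives, at 0.872 and 1.83 CPM in CD34+ libraries against 3.63 and 3.01 CPM in CD34- libraries (-1.25, SE 0.55, adjusted p = 0.322, edgeR, and -1.90 without CD34+ replicate 2). Foxo6, best known in brain, had 15 and 4 reads in CD34+ libraries and 12 and 6 in CD34- libraries. On the RPKM scale the sign of Foxo1 turned (-0.037 with a pseudocount of 1), and the scale itself moved the median of all genes to -0.25.

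Most genes that control FoxO factors had a negative log2FC, and FoxO target genes had either sign. Of 26 tested genes of FoxO control, 22 had a negative and 4 a positive fold change, with a median of -0.40, where all genes tested gave 51.3% negative and a median of -0.02. None passed over all genes, and 4 were lower and 1 higher at an unadjusted p under 0.05 (edgeR), where all genes tested gave 6.65% lower and 9.81% higher. Ywhag and Ywhah encode 14-3-3 proteins. Ywhag was 164 and 165 CPM in CD34+ libraries and 287 and 256 CPM in CD34- libraries, and Ywhah 157 and 105 CPM in CD34+ libraries and 254 and 230 CPM in CD34- libraries (adjusted p = 0.264 for each, edgeR). Inpp4b, a lipid phosphatase, was also among the lower ones, at 0.581 and 0.513 CPM in CD34+ libraries and 4.16 and 0.957 CPM in CD34- libraries, but it passed the filter through the CD34- group only and was bound to differ. Without it 21 of 25 were negative and 3 lower by that measure. Crebbp, the acetyltransferase that modifies FoxO factors, was higher at 136 and 126 CPM in CD34+ libraries against 95 and 59 CPM in CD34- libraries (0.80, adjusted p = 0.267, edgeR).

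Among 28 tested FoxO target genes, 13 were positive and 15 negative, with a median of -0.08 and none passed. Without a gene that passed the filter through the CD34+ group only (Tnfsf10, a death ligand), 12 of 27 were positive and the median was -0.15. Irs2, the insulin receptor substrate, was 421 and 231 CPM in CD34+ libraries against 104 and 132 CPM in CD34- libraries (log2FC 1.48, adjusted p = 0.207, edgeR). Bnip3, a mitophagy receptor that hypoxia also induces, was 17.9 and 40.9 CPM in CD34+ libraries against 146 and 118 CPM in CD34- libraries (-2.14, adjusted p = 0.173, edgeR). Ccng2, an atypical cyclin, was 33.9 and 63.1 CPM in CD34+ libraries and 91.2 and 96.1 CPM in CD34- libraries. Trib1, a pseudokinase gene, was 585 and 312 CPM in CD34+ libraries and 118 and 253 CPM in CD34- libraries. Targets of the same factors thus stood on both sides, and none of these differences passed over all genes.

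**Figure D4:**
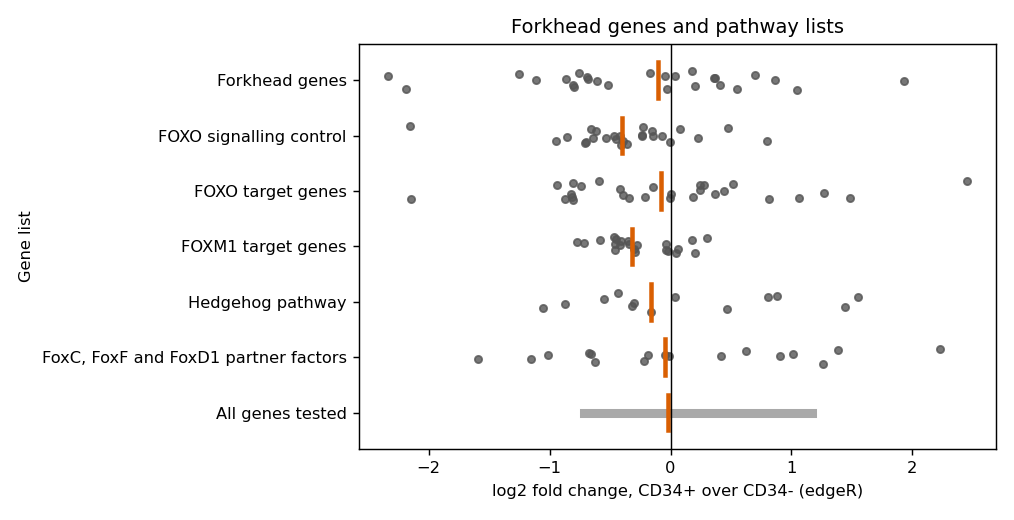
Log2 fold change (CD34+ over CD34-, edgeR) of each tested gene in the forkhead family and in 5 lists of related genes, with the median of each as an orange bar. The grey bar spans the 10th to 90th percentile of all 13875 genes tested. The median of FoxO control genes lies at -0.40 and that of the forkhead genes at -0.11.

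FoxK factors bind promoters of autophagy and glycolysis genes. Foxk2 was 31.4 and 30.9 CPM in CD34+ libraries and 52.2 and 49.5 CPM in CD34- libraries. The replicates nearly coincided in each group, with means of 31.2 ± 0.334 CPM in CD34+ libraries and 50.9 ± 1.88 CPM in CD34- libraries (SD over 2 libraries each). Its log2FC was -0.69 (SE 0.23), with an unadjusted p of 0.022 and an adjusted p of 0.247 (edgeR). Foxk1 was 11.2 and 15.3 CPM in CD34+ libraries and 21.2 and 19.9 CPM in CD34- libraries (-0.61, SE 0.29, adjusted p = 0.347, edgeR). Both genes of this subfamily were thus lower without overlap, as were 26.6% of all genes tested, and neither passed.

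Of the 6 genes with an unadjusted p under 0.05, Foxd2 and Foxk2 have an entry in the promoter table used here, and the 250 bases before their starts are shown because no other sequence of the 6 was at hand. The sequences are from RefSeq, build GRCm38.p6, written 5′ to 3′ on the gene's strand. Both strands were searched for the letters CCAAT, a box bound by NF-Y. They were also searched for the GC box bound by Sp factors, GGGCGG. The TATA box was searched as TATAAA, and a forkhead core site as TGTTTAC. Capitals mark the matches, which do not overlap. The Foxd2 stretch is chr4:114908899-114909148 on the minus strand and the Foxk2 stretch chr11:121259737-121259986 on the plus strand.
Foxd2: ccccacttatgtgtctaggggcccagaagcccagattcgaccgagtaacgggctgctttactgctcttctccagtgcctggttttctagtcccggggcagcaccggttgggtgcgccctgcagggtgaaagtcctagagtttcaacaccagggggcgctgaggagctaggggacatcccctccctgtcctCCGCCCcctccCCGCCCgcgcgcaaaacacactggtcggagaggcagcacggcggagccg
Foxk2: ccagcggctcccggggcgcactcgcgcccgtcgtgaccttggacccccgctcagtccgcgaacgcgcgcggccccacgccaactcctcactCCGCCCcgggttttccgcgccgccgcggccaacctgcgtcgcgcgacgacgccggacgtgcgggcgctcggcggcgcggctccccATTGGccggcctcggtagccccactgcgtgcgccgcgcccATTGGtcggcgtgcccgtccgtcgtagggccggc
Foxd2 had 2 GC boxes, and Foxk2 had 1 GC box and 2 CCAAT boxes. The TATA box and the forkhead core site were not among the letters of either window. Of all 32851 promoters given by RefSeq, 32.7% held the GC box, 33.8% the CCAAT box, 12.4% the TATA box and 3.17% the forkhead core site. Both stretches were rich in G and C, at 64.4% for Foxd2 and 78.4% for Foxk2, against a median of 52.4% over all promoters.

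The tested Foxn and Foxj genes, apart from Foxj1, were Foxn2, Foxn3, Foxj2 and Foxj3. Foxn2, Foxn3, Foxj2, Foxp1, Foxp2, Foxo3, Foxo6 and Foxm1 overlap another annotated gene in RefSeq, and their counts are uncertain to that extent because the strand setting is not known. Foxn2 was 9.59 and 14.7 CPM in CD34+ libraries and 22.3 and 22.3 CPM in CD34- libraries (log2FC -0.86, SE 0.31, unadjusted p = 0.031, adjusted p = 0.273, edgeR). Foxn3 was 45.6 and 42.3 CPM in CD34+ libraries and 50.1 and 50.0 CPM in CD34- libraries (-0.17, SE 0.23). Foxj3, a factor of muscle and germ cells, was 21.4 and 25.1 CPM in CD34+ libraries and 36.0 and 31.6 CPM in CD34- libraries (-0.52, SE 0.24, adjusted p = 0.340, edgeR). Foxj2 was 38.8 and 36.0 CPM in CD34+ libraries and 33.6 and 33.3 CPM in CD34- libraries (0.18, SE 0.23). Foxn3 and Foxj2 thus differed by less than their standard error, although neither overlapped between the groups. Foxn2, Foxn3 and Foxj3 had the CD34- libraries above and Foxj2 the CD34+ libraries, and none passed.

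Foxj1, the master factor of motile cilia, had 16 and 13 reads in CD34+ libraries and 2 and 7 reads in CD34- libraries. At 1.55 and 0.952 CPM in CD34+ libraries against 0.151 and 0.478 CPM in CD34- libraries, its log2FC was 1.93 (SE 0.76, unadjusted p = 0.043, adjusted p = 0.291, edgeR). The log2FC was 1.27 without CD34- replicate 1 and 3.04 without CD34- replicate 2. Of 4 tested ciliated-cell markers 3 were positive, and the sum of the list, mostly the tubulin gene Tubb4b, was 137 and 203 CPM in CD34+ libraries and 165 and 194 CPM in CD34- libraries. Dnah5, an axonemal dynein gene, was 1.65 and 1.10 CPM in CD34+ libraries, against 0.151 and 0 CPM in CD34- libraries. Like Foxj1 it passed the filter through the CD34+ group only and was bound to differ. Without Dnah5, 2 of 3 were positive, beside 48.7% of all genes tested. Those 3 were Rsph1 (log2FC 0.88, SE 0.50), Ccdc39 (0.23, SE 0.55) and Tubb4b (-0.09, SE 0.30). Mesothelial markers summed to 397 and 233 CPM in CD34+ libraries and 249 and 158 CPM in CD34- libraries, with 4 of 6 positive. Upk3b and Lrrn4 among these passed the filter through the CD34+ group only, and without them 2 of 4 were positive. The part of such cells in the Foxj1 values was not tested.

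Foxa2, an endodermal and pancreatic factor, was 2.33 and 2.93 CPM in CD34+ libraries and 9.83 and 2.05 CPM in CD34- libraries. CD34- replicate 1 stood above the other 3 libraries, and without it the log2FC turned to 0.27, against -1.11 (SE 0.73) with all 4. The 8 epithelial markers were detected in every library, led by Krt8, and summed to 887 and 575 CPM in CD34+ libraries and 819 and 425 CPM in CD34- libraries. The markers did not share 1 order of libraries: Cdh1, Krt8 and Krt18 were highest in CD34- replicate 1, where Foxa2 was highest, and Epcam, Krt7, Krt19, Cldn4 and Muc1 in CD34+ replicate 1. Cdh1, the epithelial cadherin, was 36.3 and 22.2 CPM in CD34+ libraries and 54.8 and 25.1 CPM in CD34- libraries. Epcam, an epithelial adhesion molecule, was 49.7 and 16.9 CPM in CD34+ libraries and 10.1 and 18.6 CPM in CD34- libraries. The part of epithelial cells in the Foxa2 values was not tested. Foxa3, a liver factor, had 13 and 6 reads in CD34+ libraries and 16 and 8 in CD34- libraries, and Foxa1 had 5 and 5 in CD34+ libraries and 7 and 2 in CD34- libraries.

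Foxm1, which drives genes of mitosis, was 5.23 and 8.35 CPM in CD34+ libraries and 9.46 and 4.17 CPM in CD34- libraries, overlapping groups with a log2FC of 0.04 (SE 0.50). The sums of 22 Foxm1 target genes were 213 and 284 CPM in CD34+ libraries and 383 and 196 CPM in CD34- libraries. Foxm1 and this sum thus put the 4 libraries in the same order, with CD34- replicate 1 highest and CD34- replicate 2 lowest. Of the 22 targets 5 were positive and 17 negative with a median of -0.32, and 0 had an unadjusted p under 0.05 (edgeR). Kif20a, a mitotic kinesin gene with the lowest p of those above 5 CPM, was 5.62 and 4.91 CPM in CD34+ libraries and 13.2 and 5.47 CPM in CD34- libraries. Next to it came Cenpa, Cenpe and Skp2, whose log2FC lay between -0.72 and -0.45.

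Hedgehog genes, upstream of Foxf1, Foxf2 and Foxl1, went both ways. Of 13 tested, 6 were positive and 7 negative (median -0.16), none passed, and at an unadjusted p under 0.05 (edgeR) 3 were higher (Cdon, Gli1 and Hhip) and 1 lower (Ptch1), where all genes tested gave 9.81% higher and 6.65% lower. Hhip, an inhibitor gene, passed the filter through the CD34+ group only and was bound to differ. Without it 5 of 12 were positive and 2 higher by that measure. Cdon, a co-receptor, was 83.5 and 127 CPM in CD34+ libraries and 35.2 and 42.8 CPM in CD34- libraries (log2FC 1.44, adjusted p = 0.173, edgeR). The effector gene Gli1 was 38.0 and 20.7 CPM in CD34+ libraries and 17.4 and 15.1 CPM in CD34- libraries (0.88, adjusted p = 0.302, edgeR), and the co-receptor gene Boc 40.9 and 91.9 CPM in CD34+ libraries and 33.2 and 42.8 CPM in CD34- libraries. Ptch1, the main receptor and itself a target, was 2.33 and 3.08 CPM in CD34+ libraries and 6.05 and 5.40 CPM in CD34- libraries (-1.06, adjusted p = 0.302, edgeR).

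Mesenchymal factors that act beside FoxC, FoxF and FoxD1 in development also divided, with 7 positive and 10 negative of 17 (median -0.05), none of which passed. At an unadjusted p under 0.05 (edgeR) 4 were higher (Osr1, Tcf21, Wt1 and Prrx2) and 3 lower (Twist1, Snai2 and Tbx18), beside 9.81% higher and 6.65% lower over all genes tested. Osr1, a factor of lateral and intermediate mesoderm, was 49.0 and 60.7 CPM in CD34+ libraries against 13 and 10.8 CPM in CD34- libraries (log2FC 2.23, SE 0.26, adjusted p = 0.134, edgeR). Twist1, a factor of mesenchyme formation, was 17.3 and 24 CPM in CD34+ libraries against 45.6 and 39.2 CPM in CD34- libraries (-1.01, SE 0.26, adjusted p = 0.207, edgeR). Tcf21 was 46.1 and 38.5 CPM in CD34+ libraries and 11.0 and 21.3 CPM in CD34- libraries. Wt1, also among the mesothelial markers above, was 206 and 120 CPM in CD34+ libraries and 57.7 and 79.3 CPM in CD34- libraries.

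The remaining 15 forkhead genes with a count were too low to test, with at most 14 reads in a library. Together they had 46 and 37 reads in CD34+ libraries and 19 and 8 reads in CD34- libraries. Reads were found only in CD34+ libraries for 7 of them, namely Foxb2, Foxd3, Foxd4, Foxe1, Foxi3, Foxn1 and Foxp3, only in a CD34- library for Foxh1, and in both groups for the other 7. Foxb2, Foxd3, Foxe1 and Foxh1 had 1 read each. Foxd1, given above, had the most reads over the 4 libraries (27), and Foxr1 the most in 1 library, with 14 and 4 reads in CD34+ libraries and 2 and 0 in CD34- libraries. Forkhead genes with a count above 0 numbered 40 and 37 in CD34+ libraries and 30 and 32 in CD34- libraries, and as given above the count of all detected genes was higher in the CD34+ libraries as well.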

How the data were processed

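The authors deposited raw counts for 22609 genes, with RPKM for the same genes, and bias-adjusted FPKM with estimated counts of fragments for 22558. Per the submitters' processing notes Bowtie2, TopHat2, HTSeq and edgeR and the build mm9 were used; the sources used here give neither annotation nor strand setting, so reads of overlapping or antisense genes cannot be told apart. Per the labels' protocols RNA was amplified with MessageAmp, so copies are not independent molecules. Each table also holds 14 columns that match no sample here and were not used.

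CPM is the count over the column total. The test was edgeR 4.0.16's quasi-likelihood F test in R 4.3.3 (TMM, filterByExpr, group as the only term), two-sided, Benjamini-Hochberg adjusted over 13875 genes at 0.05, with SE as the fold change over the root of F, and 2 residual and 4.17 prior degrees of freedom. An exact permutation test over these libraries cannot go below p = 0.333 and was not run. Estimated fragments were rounded for edgeR. Alternatives used DESeq2 1.42.0, limma 3.58.1 (on log2 of RPKM or FPKM with a pseudocount), other scalings and filters, the replicate block and left-out libraries. The fits were tested on simulated counts. Floors of 3 counts cover counting error only.

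Groups come from the titles. Members and lists were chosen with earlier results of these data known. Some items, 1 tested member among them, are not reported here. Named are the other members, up to 4 genes with the lowest p in each list (mean of 5 CPM or more), and the marker with the highest CPM of each cell type, which for those not in the report were Cpa1 (acinar, 1.84 and 18.8 CPM in CD34+, 2.65 and 6.42 in CD34-), Ikzf2 (regulatory T cells, 12.7 and 16.6, 11.3 and 16.1), Lyz2 (myeloid, 70.9 and 76.1, 37.9 and 41.8) and S100b (glia, 11.0 and 6.74, 17.6 and 10.5). Sums of these lists were 11.3 and 27.3 CPM in CD34+ and 15.1 and 11.6 in CD34- libraries for acinar and islet genes, 34.5 and 18.3 and 12.7 and 17.1 for regulatory T cells, 2.33 and 1.98 and 1.13 and 0.615 for B cells, 110 and 96.9 and 62.3 and 52.6 for myeloid cells, 13.5 and 9.16 and 19.1 and 11.5 for glia, and 21.5 and 3.44 and 1.97 and 2.53 for T cells. Each set of 4 values gives both CD34+ libraries and then both CD34- libraries, in CPM. The T-cell marker Trac had no row in the counts, and no other listed marker was at 0 in all 4 libraries. Cd3e, given above, is part of the T-cell and the regulatory T-cell sums. Genes below 5 CPM (Ptch1, Inpp4b, Hhip, Tnfsf10) and list genes past rank 4 (Snai2, Prrx2, Tbx18), and the markers set beside members, were named after their values were seen. RefSeq tables (GRCm38.p6) gave symbols and neighbours for all 44 members and promoters for 28. As that is another build than mm9, only the coordinates of the printed promoters are given.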

Additional observations from a re-analysis of the deposited data

How the results depend on the processing

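Of 448 fold changes of 25 tested forkhead genes under 18 alternatives, 404 kept their sign without being called, 4 were called and 40 had the opposite sign, and 16 genes kept one sign throughout. Forkhead genes called lower numbered 1 by DESeq2 and with no filter (Foxc2) and 2 by edgeR's exact test (Foxc2 and Foxd2), against 0 in the main test. In the exact test Foxd2 was bound to differ, as it passed the filter through the CD34- group only. Over all genes, where the main test called 0 higher and 0 lower, DESeq2 called 396 and 180, the exact test 457 and 203 and no filter 194 and 137. Upper-quartile scaling, scaling by library total, a filter of 1 CPM and limma on log2 FPKM + 1 each called 2 higher and 0 lower. With the replicate block (the labels pair no libraries, and deviations of same-numbered libraries correlated at 0.241 over genes) all-gene calls were 39 and 23 and Foxc2 stayed uncalled (adjusted p = 0.060). Leaving out any library called 0 throughout, with the lone library of a group assumed to vary like the other group. Forkhead genes lower at an unadjusted p under 0.05 then numbered 9 without CD34+ replicate 2, 5 when the other CD34+ library was left out and 3 without either CD34- library, against 5 with all. Those higher numbered 3 and 2 when CD34+ replicate 2 or CD34- replicate 1 was left out, and 1 otherwise.

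Opposite signs came on the RPKM and FPKM scales, whose medians over all genes were -0.25 (RPKM + 1), -0.37 (RPKM + 0.1), -0.04 (RPKM + 1 unfiltered) and -0.28 (FPKM + 1), against 0.17 with no filter and -0.02 in the main test. On RPKM + 1, filtered or not, these were Foxj2 (-0.20), Foxl1 (-0.073), Foxm1 (-0.17), Foxo1 (-0.037), Foxo6 (-0.020) and Foxq1 (-0.014). On RPKM + 0.1 the same genes had -0.23, -0.27, -0.29, -0.046, -0.14 and -0.092. On FPKM + 1 they were Foxj2 (-0.26), Foxl1 (-0.12), Foxm1 (-0.29), Foxo6 (-0.16) and Foxq1 (-0.022). Elsewhere they were Foxa3 by DESeq2 (0.018) and upper quartile (0.034), Foxp1 by upper quartile (0.034) and on fragments (0.16), Foxl1 by voom (-0.039), and Foxm1 with no filter (-0.043) and on fragments (-0.12). The cause was not tested. Leaving out a library turned signs of Foxa2, Foxa3, Foxl1, Foxm1, Foxo6 and Foxq1, with log2FC ranging from -1.81 to 0.27, -0.97 to 0.55, -0.93 to 0.83, -0.39 to 0.62, -1.13 to 1.17 and -0.69 to 1.18 in that order. Depth limits the genes under 5 CPM.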

Other observations

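The deposited estimates of fragments differed from the read counts gene by gene. Over the 26 tested forkhead genes the ratio of fragments to reads, summed over the 4 libraries, ran from 0.420 (Foxn2) to 2.68 (Foxf1), with a median of 1.25, where the median over all genes tested was 0.971. Foxp1 had 1267 and 1766 fragments in CD34+ libraries and 1727 and 1483 in CD34- libraries, against 2311 and 3022 reads in CD34+ and 3201 and 3280 in CD34- libraries, a ratio of 0.528. On fragments its log2FC was 0.16 (SE 0.22, adjusted p = 0.766, edgeR). Foxp3 had the widest gap of the forkhead genes with a count, and on fragments its log2FC was -0.18 (SE 0.53, adjusted p = 0.903, edgeR). What sets these ratios was not tested.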
